A study of Mus musculus with 18 samples.

Results

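Imprinted genes are expressed from 1 parental copy, and 40 of them were followed here through mouse embryonic stem (ES) cells, germ cells made from them in culture and germ cells of the embryo and testis. The 40 genes were listed by name and matched to array probes by symbol, older synonym or accession. Whether each was expressed from 1 copy in these cells was not measured. All 40 were on the array, with 81 probes, and 37 of them were among the 18876 genes that passed the filter on dim probes and were tested. Total RNA of 18 sorted samples, in 9 groups of 2, was labelled with Cy3 and hybridised to 1-colour Agilent mouse arrays. All samples are labelled male, of a mixed C57BL/6 and 129SV background. Stella-GFP ES cells, which carry the reporter on a bacterial artificial chromosome (BAC), were undifferentiated on feeder fibroblasts and were sorted into GFP- and GFP+ fractions. Dazl-GFP ES cells were grown and sorted in the same manner. The GFP+ cells of feeder-depleted cultures were taken at day 7 from the Stella-GFP line and at days 12 and 16 from the Dazl-GFP line, and these are called in vitro primordial germ cells by the labels. Dazl-GFP+ cells were also sorted from embryonic gonads at E13.5 and from juvenile testes at postnatal days 7 to 11. Stella (Dppa3) and Dazl are both expressed in germ cells, so each sort selects on a germ cell gene, and each reporter was studied in its own ES line.

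In imprinting, DNA methylation laid down in one parent's germ line marks that parent's copy of a control region, and the mark keeps neighbouring genes on or off according to parental origin. The marks are protected in the early embryo by factors such as ZFP57, TRIM28 and DNMT1. They are erased in primordial germ cells and then laid down again by sex, in male germ cells before birth with DNMT3A and DNMT3L. Many imprinted genes act on fetal growth, placenta and metabolism, and ES cells are known to lose imprints in culture at some loci.

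A level is the log2 of the array's background-corrected signal minus the log2 of that array's 75th percentile, so 0 is the 75th percentile and 1 unit is a 2-fold difference. Where a gene had several tested probes, the brightest stood for it, and levels of different genes are not set against each other. Replicates are separate samples per the labels, which do not say whether they came from separate cultures or animals, so a p-value reflects only how far these particular samples spread, which may be technical. The 75th percentile signal ran from 99.9 to 467 units and 50.1% to 68.4% of probes were well above background. Replicates correlated at r = 0.943 to 0.994. The lowest correlation was that of E13.5, where 11 of 37 members differed by more than 2 log2 units between both libraries, against 8.24% of all genes tested. E13.5 replicate 1, although labelled male, had 0 of 4 Y-linked marker genes above background, while the other E13.5 library had 3 of 4. That library also had 4 of 5 trophoblast markers above background, with a summed linear level of 9.02 against 0.249, and a Sertoli marker sum of 1.57 against 6.16. Differences called at E13.5 are therefore given with and without replicate 1, in which case the lone sample is assumed to vary like the other groups.

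The arrays lay on 6 slides. The E13.5 and testis arrays shared a slide of their own, and each day 7 array had its own slide, so slide and group cannot be told apart in the day 7 comparison and in E13.5 against cultured cells. The day 7 arrays also had a scan day and an extraction-software protocol that no other array shared, and neither can be told apart from day 7. The summed level of 12 fibroblast (feeder) markers was 43.8 to 47.5 in Dazl-GFP+ ES cells, 10.1 to 10.7 in Dazl-GFP- cells and 3.1 to 3.84 at days 12 and 16. Summed germ cell markers were 28.4 to 28.7 in Dazl-GFP+ ES cells, 60.8 to 79.6 at days 12 and 16 and 250.5 to 336 at E13.5. Summed ES cell markers were 204.6 to 206 in Dazl-GFP+ and 114.4 to 118.7 in Dazl-GFP- ES cells. They were 127 to 141.2 at days 12 and 16 and 26.1 to 58.6 at E13.5. At day 7 they were 220.7 to 231.7, against 332.8 to 386.4 in Stella-GFP+ ES cells. The part of these mixtures in the results was not tested, and in bulk samples fewer cells of a type and less RNA per cell cannot be told apart.

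Imprinted genes moved in both directions in the cultures and at E13.5, and few were called in the reporter sorts of ES cells. A gene was called where limma's moderated test gave a Benjamini-Hochberg adjusted p under 0.05 over all 18876 genes. In the Stella-GFP sort, GFP+ against GFP- ES cells, 0 of 37 members were higher and 1 was lower, against 0.0901% and 0.366% of all genes, and 9 members had an unadjusted p under 0.05. In the Dazl-GFP sort 1 member was higher and 2 were lower, against 1.41% and 1.43%. Between both ES lines, Stella minus Dazl, 0 were higher and 4 were lower, against 3.80% and 4.90%, with 11 at an unadjusted p under 0.05. At day 7, against Stella-GFP+ ES cells, 3 were higher and 4 lower, with 7.53% and 13.54% of all genes.

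Against Dazl-GFP+ ES cells, day 12 cells had 8 members higher and 7 lower, beside 12.7% and 14.9% of all genes. Day 16 cells had 9 higher and 5 lower, beside 10.8% and 14.1%. E13.5 germ cells had 12 higher and 13 lower, beside 22.3% and 22.6%. These 3 comparisons share the same ES control samples. E13.5 cells set against day 16 cells had 4 higher and 10 lower, beside 23.1% and 18.8%. Juvenile testis germ cells set against E13.5 had 4 higher and 13 lower, beside 16.5% and 18.3%. In all, 40.5% of members were called at day 12 and 67.6% at E13.5 against ES cells, where 27.6% and 44.9% of all genes were, while the share at E13.5 against day 16, 37.8%, was below the 41.9% of all genes. Without E13.5 replicate 1 the counts called were 25 against ES cells, 19 against day 16 and 21 in the testis comparison, in place of 25, 14 and 17, where 42.4%, 42.5% and 40.1% of all genes were called. The fit shares its spread over all groups, so leaving that library out also raised the counts elsewhere, to 21 at day 12, 20 at day 16, 14 at day 7, 10 between lines, 8 in the Dazl-GFP sort and 5 in the Stella-GFP sort. The shares of all genes called rose with them, to 36.9%, 35.2%, 30.4%, 15.3%, 7.26% and 1.40%.

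With slide as a block, which could be fitted where groups shared slides, fewer members were called. All 4 calls between lines were lost, as were Magel2 in the Stella-GFP sort and H19 and Peg3 in the Dazl-GFP sort. At day 12 Igf2, Peg3, Magel2, Dlk1, Rian, Mkrn3, Usp29, Nap1l4 and Calcr lost their calls, and at day 16 Igf2, Dlk1, Snrpn, Ndn, Nap1l5 and Calcr did. In the testis comparison Slc22a18 and Ppp1r9a did. Each kept its direction. With normexp background correction Magel2 lost its call in both sorts, H19 and Peg3 in the Dazl-GFP sort, and Peg3, Magel2 and Osbpl5 between lines. Day 7 lost Magel2, Mirg, Mkrn3, Usp29, Grb10 and Copg2, and day 12 lost Peg3, Magel2, Dlk1, Rian, Mkrn3, Usp29 and Calcr. Day 16 lost Magel2, Mirg, Sgce, Dlk1, Snrpn, Ndn, Nap1l5, Zrsr1, Dio3 and Calcr. Snrpn and Ascl2 were lost at E13.5 against ES cells, Ascl2 against day 16, and Usp29, Nnat and Igf2r in testis.

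By parental allele, textbook class and not measured here, day 16 cells had 7 of 19 paternally expressed genes higher and 2 lower, with a median log2 difference of 0.88. Of the 17 maternally expressed genes, 2 were higher and 3 lower, with a median of -0.60, and the median over all genes was -0.17. Of all genes 10.8% were called higher and 14.1% lower at day 16. Of the 7 paternal genes called higher, only Igf2 kept its call with normexp correction. Only Sgce, Zrsr1 and Dio3 kept theirs with slide as a block, and all 7 kept their direction in both. In the maternal class H19, Copg2 and Meg3 kept their calls in both, Mirg only with slide as a block and Calcr in neither. At day 12 the counts were 5 higher and 3 lower for the paternal class and 3 higher and 4 lower for the maternal class. The shares of all genes were 12.7% higher and 14.9% lower. At E13.5 against ES cells 22.3% of all genes were higher and 22.6% lower. With both E13.5 libraries the paternal class had 6 higher and 6 lower and the maternal class 6 higher and 7 lower. That split depends on E13.5 replicate 1. Without it the median difference over all members was -0.42 in place of 0.023, and over all genes 0.027 in place of -0.002. The juvenile testis was the group of lowest mean for 16 of 37 members and Dazl-GFP- ES cells the group of highest mean for 12. The same counts were not made over all genes, so they are not known to be particular to imprinted genes.

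**Figure D1:**
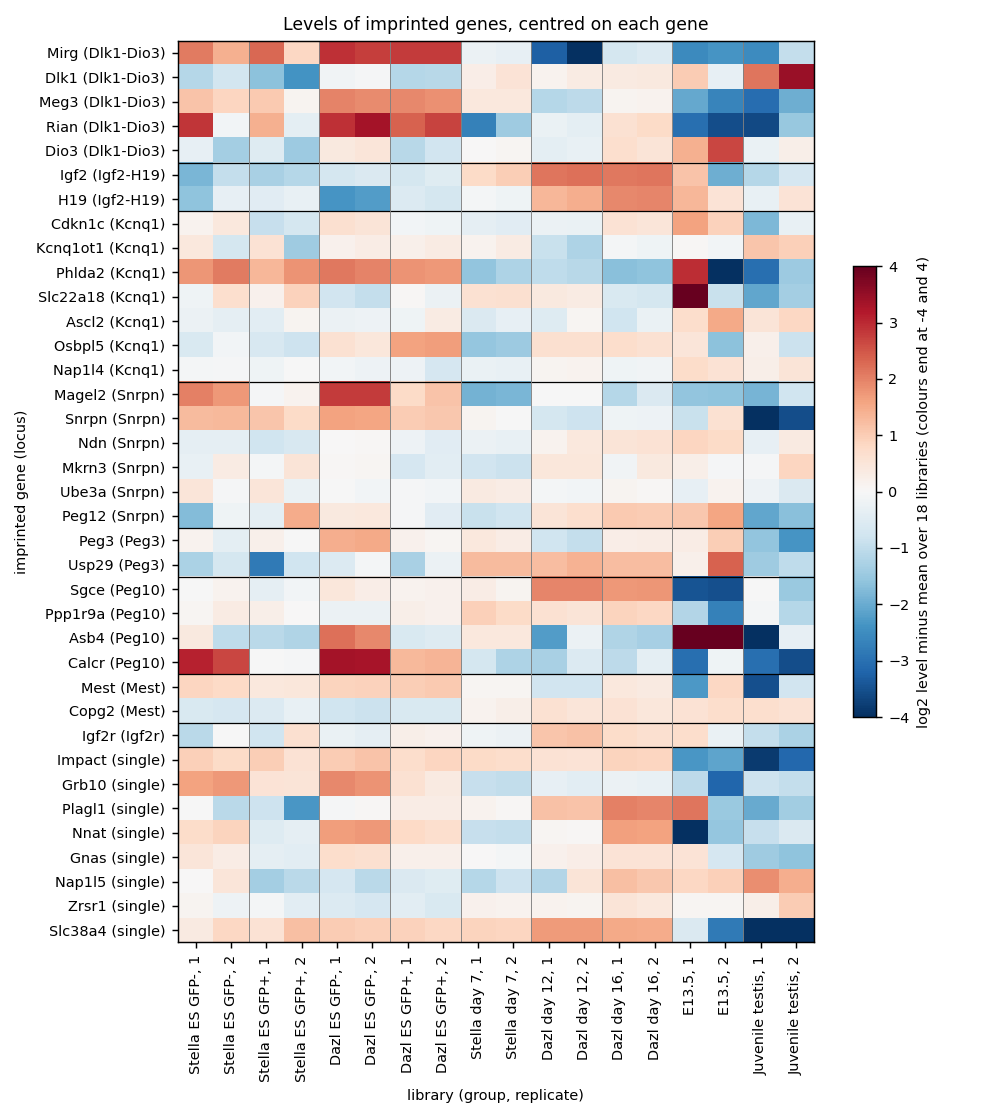
Each row is 1 of the 37 tested imprinted genes, sorted by locus, and each column 1 of the 18 libraries; colour is the log2 level minus that gene's mean, with colours ending at -4 and 4. Mirg, Meg3 and Rian are highest in the Dazl ES columns and lower in the day 12, E13.5 and testis columns, while Igf2 and H19 are high at days 12 and 16.

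The Dlk1-Dio3 locus on chromosome 12 holds paternally expressed protein genes and, on the maternal copy, long noncoding RNAs, and at E13.5 all 5 were called against ES cells, where 44.9% of all genes were, with Dlk1 and Dio3 higher and Meg3, Rian and Mirg lower. The Dlk1 call was lost without E13.5 replicate 1. Dlk1 encodes a membrane protein of the Notch ligand type, and Meg3 is the first of the maternal noncoding RNAs. Their promoter windows are shown because these genes of the same locus moved in opposite directions. Both are RefSeq GRCm38.p6 sequence on the + strand, 250 bases before to 50 after the start, Dlk1 at chr12:109452573-109452872 and Meg3 at chr12:109540746-109541045. Capitals mark TGCCGC, the hexamer that ZFP57 binds when methylated, or its reverse complement GCGGCA.
Dlk1: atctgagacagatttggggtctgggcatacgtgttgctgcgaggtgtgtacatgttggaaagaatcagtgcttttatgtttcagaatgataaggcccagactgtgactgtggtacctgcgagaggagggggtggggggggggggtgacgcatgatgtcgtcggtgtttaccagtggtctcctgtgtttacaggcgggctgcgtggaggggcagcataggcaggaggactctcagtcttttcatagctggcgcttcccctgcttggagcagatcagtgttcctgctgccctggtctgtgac
Meg3: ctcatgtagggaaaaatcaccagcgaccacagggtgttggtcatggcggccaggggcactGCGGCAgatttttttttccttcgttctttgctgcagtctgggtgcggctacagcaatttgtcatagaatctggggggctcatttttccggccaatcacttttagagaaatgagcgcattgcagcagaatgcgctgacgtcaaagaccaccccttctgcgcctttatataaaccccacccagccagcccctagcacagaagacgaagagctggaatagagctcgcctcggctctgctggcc
The hexamer was found in the Meg3 window shown and not in these letters of the Dlk1 window, and either strand of it was in 11.6% of 32851 such windows. Meg3 had another window, with 1 CpG and 0 hexamers, and the one with the most CpG is shown. It was in 13 of the 54 windows found for 34 members, and the median window held 12.5 CpG for members and 7 over all genes. A match is only a description of the letters.

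Meg3 was 4.61 and 4.50 in Dazl-GFP+ ES cells, 1.53 and 1.63 at day 12, 2.79 and 2.83 at day 16 and 0.63 and 0.03 at E13.5. The ES libraries did not overlap any of these groups. Meg3 fell by 2.98 log2 units (SE 0.359, adjusted p = 0.000162) at day 12, by 1.74 (SE 0.359, adjusted p = 0.00498) at day 16 and by 4.22 (SE 0.359, adjusted p = 4.54e-06) at E13.5. Without E13.5 replicate 1 the last difference was -4.52. All 5 Meg3 probes were lower in each comparison, between -5.41 and -2.57 at day 12. Dazl-GFP- ES cells, with the lower fibroblast marker sum, had Meg3 at 4.66 and 4.58, and the part of these markers was not tested.

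Mirg, a noncoding transcript that hosts microRNAs, was 0.53 and 0.54 in Dazl-GFP+ ES cells and -5.54 and -6.72 at day 12, not well above background on either day 12 array. It was at least 41.7-fold lower at day 12 (adjusted p = 1.37e-05), a bound that sets the ES mean against the lowest signal above background. It stood at -2.96 and -2.82 at day 16, lower than in ES cells by 3.42 (SE 0.553), and at -4.82 and -4.63 at E13.5, lower by 5.26 (SE 0.553), or 5.16 without replicate 1. Rian, the host of small nucleolar RNAs between them, was -1.40 and -1.05 in Dazl-GFP+ ES cells and -4.02 and -4.15 at day 12, a fall of 2.86 (SE 0.917, adjusted p = 0.038). Rian was at least 17.9-fold lower at E13.5, or 17.4-fold without replicate 1, where neither array was well above background, and it was -3.16 and -3.00 at day 16, where the difference of -1.85 was not called, although a second probe gave -3.93 (unadjusted p = 8.39e-06). The day 12 call for Rian was lost without any 1 of the 4 libraries compared, with differences of -3.04 to -2.68. Against day 16, Meg3 and Rian were lower again at E13.5, by 2.48 (SE 0.359), or 2.78 without replicate 1, and by at least 4.94-fold, or 4.83-fold. Mirg was lower by 1.84 (SE 0.553), a call lost without day 16 replicate 1, day 16 replicate 2 or E13.5 replicate 1 (differences of -1.93 to -1.74).

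Dlk1 ran the other way. It was -1.0 and -0.95 in Dazl-GFP+ ES cells, 0.30 and 0.48 at day 12, 0.52 and 0.55 at day 16, 1.16 and -0.16 at E13.5 and 2.30 and 3.59 in juvenile testis. No ES library of that group reached any of the others. Dlk1 was higher by 1.36 (SE 0.454) at day 12, 1.51 (SE 0.454) at day 16 and 1.47 (SE 0.454) at E13.5. At day 7 it was 0.42 and 0.72 against -1.48 and -2.25 in Stella-GFP+ ES cells, a rise of 2.43 (SE 0.454, adjusted p = 0.00388). The day 12 and day 16 calls were lost without any 1 library of the groups compared (1.27 to 1.45 and 1.49 to 1.53). The E13.5 call was lost without either ES library (1.45 to 1.49) and was 0.81 without E13.5 replicate 1 (adjusted p = 0.181). The second Dlk1 probe gave 0.92 at day 12 and 0.98 at day 16, with unadjusted p of 0.0969 and 0.0794. From E13.5 to juvenile testis Dlk1 rose by a further 2.45 (SE 0.454, adjusted p = 0.0016), or by 3.11 without E13.5 replicate 1. In that comparison Sertoli marker sums were 1.57 to 6.16 at E13.5 and 7.24 to 18.3 in testis, with 4 of 8 markers higher. Fibroblast sums were 1.69 to 1.98 and 7.82 to 9.1, with 6 of 12 higher, and Leydig sums were 1.07 to 1.44 and 0.944 to 1.12. The part of these markers in the testis result was not tested.

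Dio3, the deiodinase that inactivates thyroid hormone, was -1.95 and -1.62 in Dazl-GFP+ ES cells, -0.18 and -0.31 at day 16 and 0.58 and 1.83 at E13.5. It was higher by 1.54 (SE 0.437, adjusted p = 0.0246) at day 16 and by 2.99 (SE 0.437, adjusted p = 0.000222) at E13.5, or 3.61 without replicate 1. The day 16 call was lost without any 1 of the 4 libraries (1.37 to 1.70). At day 12 it was -1.24 and -1.15 and was not called. In juvenile testis it was -1.12 and -0.61, lower than at E13.5 by 2.07 (SE 0.437), or by 2.69 without E13.5 replicate 1.

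In ES cells themselves the maternal RNAs differed by line and by replicate. Meg3 was lower in the Stella line by 1.11 (SE 0.254, adjusted p = 0.0199), and by 0.85 within the slide that held both lines. With slide as a block the difference was -1.0 and no longer called (adjusted p = 0.142). Rian was -0.91 and -3.87 in Stella-GFP- cells and -2.35 and -4.17 in Stella-GFP+ cells, with the low value in replicate 2 each time, which lay on another slide than replicate 1. In the Dazl line it ran from -1.40 to -0.45. The line call for Meg3 was lost without either Stella replicate 2 or any 1 of the Dazl ES libraries (-1.34 to -0.87).

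**Figure D2:**
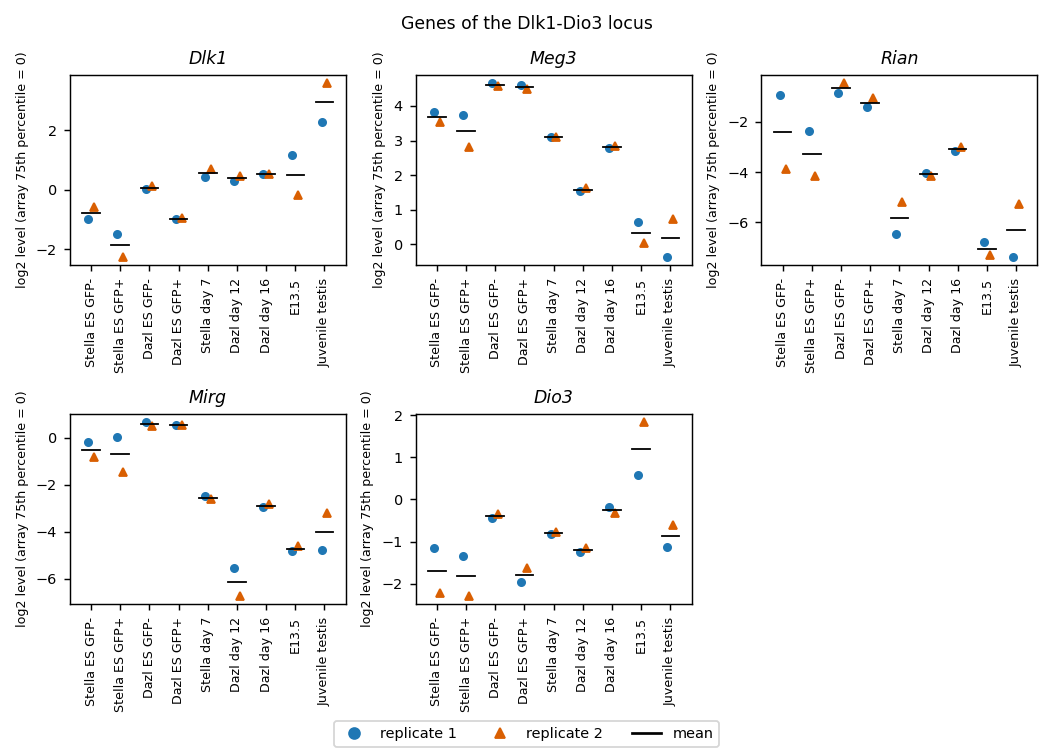
Level of each Dlk1-Dio3 gene by group, where 0 is the array's 75th percentile on the log2 scale; circles are replicate 1, triangles replicate 2 and bars the mean of 2. Meg3, Rian and Mirg lie lower at day 12 and E13.5 than in Dazl-GFP+ ES cells, and Dlk1 lies higher.

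Igf2, a fetal growth factor expressed from the paternal copy, and H19, the noncoding RNA of the maternal copy that shares its enhancers, rose together in culture. Igf2 was 0.86 and 1.05 in Dazl-GFP+ ES cells, 3.68 and 3.74 at day 12 and 3.64 and 3.67 at day 16. These groups did not overlap, and Igf2 was higher by 2.76 (SE 0.696, adjusted p = 0.0131) and by 2.71 (SE 0.696, adjusted p = 0.0158). H19 was -0.05 and -0.21 in the same ES cells, 1.84 and 1.96 at day 12 and 2.42 and 2.47 at day 16, higher by 2.03 (SE 0.385, adjusted p = 0.00282) and 2.58 (SE 0.385, adjusted p = 0.000742). The second probe of each gene gave 2.69 and 2.79 for Igf2 and 1.79 and 2.38 for H19. Igf2 lost both calls without any 1 of the libraries compared (2.66 to 2.85 and 2.61 to 2.80), whereas H19 kept both.

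At day 7 Igf2 was 2.32 and 2.52 against 0.24 and 0.40 in Stella-GFP+ ES cells, and H19 was 0.42 and 0.33 against 0.05 and 0.22. Neither was called, but Igf2 differed by 2.10 (limma unadjusted p = 0.0111) and H19 by 0.23. The second Igf2 probe gave 2.47 (unadjusted p = 0.00338). Igf2 was called at day 7 in some alternative fits, such as quantile normalization, and not in others, such as normexp correction. At E13.5 Igf2 differed between libraries, 2.69 in replicate 1 and -0.40 in replicate 2. It was lower than at day 16 by 2.51 (SE 0.696, adjusted p = 0.0132), by 4.06 without replicate 1 and by 0.97 without replicate 2, and the call was lost without either day 16 library (-2.53 to -2.50). H19 was 1.85 and 1.07 at E13.5, higher than in ES cells by 1.59 (SE 0.385, adjusted p = 0.00588), and by 1.20 without replicate 1 (adjusted p = 0.0501). In the Dazl-GFP sort H19 was -0.05 and -0.21 in GFP+ and -1.84 and -1.73 in GFP- cells, higher by 1.65 (SE 0.385, adjusted p = 0.0451). Within the slides the sort difference of H19 was 1.78 and 1.53, and the call was lost without any 1 of the 4 libraries (1.58 to 1.73). The fibroblast markers moved the same way in this sort, with 6 of 12 higher in GFP+ cells. At days 12 and 16, where H19 was highest, that marker sum was lower than in either ES fraction of the line. The part of these markers in the H19 levels was not tested.

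The Snrpn locus on chromosome 7, the mouse counterpart of the Prader-Willi and Angelman region, did not move as a block. Snrpn, which encodes a splicing protein, was 2.88 and 2.96 in Dazl-GFP+ ES cells, 1.17 and 1.05 at day 12, 1.72 and 1.67 at day 16, 0.98 and 2.50 at E13.5 and -2.17 and -1.67 in juvenile testis. Each later group lay below the ES libraries, and testis lay below all others. Snrpn fell by 1.81 (SE 0.371, adjusted p = 0.00449) at day 12, by 1.23 (SE 0.371, adjusted p = 0.0325) at day 16 and by 1.18 (SE 0.371, adjusted p = 0.0225) at E13.5. The day 16 call was lost without any 1 library (-1.26 to -1.19). The E13.5 call was lost without either ES library (-1.22 to -1.14) and was -0.42 without E13.5 replicate 1 (adjusted p = 0.155). From E13.5 to testis it fell by 3.66 (SE 0.371, adjusted p = 2.84e-05), or 4.42 without E13.5 replicate 1.

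Magel2, a cofactor of ubiquitin ligases, was the member called in the most comparisons, 7 of 9. It was -0.68 and -0.96 in Stella-GFP- and -2.74 and -2.54 in Stella-GFP+ cells, and 0.08 and 0.11 in Dazl-GFP- and -1.94 and -1.57 in Dazl-GFP+ cells. Both sorts thus had it lower in the GFP+ fraction without overlap, by 1.82 (SE 0.305, adjusted p = 0.0287) and by 1.85 (SE 0.305, adjusted p = 0.0112). Within slides the Stella difference was -2.06 and -1.58 and the Dazl difference -2.02 and -1.68. Both sort calls were lost without any 1 of the 4 libraries of that sort (-1.96 to -1.68 and -2.04 to -1.67). The sorts' differences were compared with each other, and 0 of 37 members passed in limma (smallest adjusted p = 0.351, with 3 at an unadjusted p under 0.05).

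Magel2 went lower still in culture. It was -2.70 and -2.73 at day 12 and -3.85 and -3.28 at day 16, lower than in Dazl-GFP+ ES cells by 0.96 (SE 0.305, adjusted p = 0.0364) and 1.81 (SE 0.305, adjusted p = 0.00157). The day 12 call was lost without any 1 of the 4 libraries (-1.14 to -0.78). At day 7 it was -4.59 and -4.53, not well above background, and at least 3.69-fold lower than in Stella-GFP+ cells. At E13.5 it was -4.29 and -4.31, lower by 2.54 (SE 0.305, adjusted p = 5.58e-05), and by 2.56 without replicate 1. With normexp background correction the Magel2 calls in both sorts, between lines and at days 7 and 12 were lost, with differences of -0.89 to -0.41, and the day 16 difference turned to 0.082. It was also lower in the Stella than the Dazl line by 0.91 (SE 0.216), although the lines' libraries overlapped, and that call was lost without any 1 of 5 ES libraries, Stella-GFP- replicate 2, Stella-GFP+ replicate 1, both of Dazl-GFP- and Dazl-GFP+ replicate 2 (-1.0 to -0.81).

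Ndn, a MAGE family protein that restrains growth, moved the other way, from -0.39 and -0.63 in Dazl-GFP+ ES cells to 0.33 and 0.38 at day 16 and 0.66 and 0.57 at E13.5. It was higher by 0.87 (SE 0.215, adjusted p = 0.013) and 1.13 (SE 0.215, adjusted p = 0.00134), the latter 1.08 without E13.5 replicate 1, and in testis lower than at E13.5 by 0.79 (SE 0.215), by 0.75 without E13.5 replicate 1, and by 0.45 and not called without testis replicate 1. The day 16 call was lost without ES replicate 2 or either day 16 library (0.75 to 0.99). Peg12, a retrogene of the Frat family, was 0.56 and 1.05 at E13.5 against -0.56 and -0.96 in ES cells and -2.61 and -2.20 in testis. It was higher at E13.5 by 1.57 (SE 0.554), a call lost without any 1 of the 4 libraries (1.33 to 1.81), and fell to testis by 3.21 (SE 0.554, adjusted p = 0.00101), or by 3.46 without E13.5 replicate 1. Mkrn3, a ubiquitin ligase gene, was lower at day 7 by 1.03 (SE 0.328) and at least 1.78-fold higher at day 12. The first call was lost without Stella-GFP+ ES replicate 2 or either day 7 library (-1.32 to -0.73) and the second without any 1 of the 4 libraries (0.89 to 1.12). With normexp correction the day 7 call was lost and the day 12 difference turned to -0.33. Ube3a, a ubiquitin ligase gene listed in the maternal class, had the smallest range of group means of the 37, 0.70. It was called nowhere by its brightest probe. Another Ube3a probe gave -1.04 in testis against E13.5 (unadjusted p = 8.05e-05) and -0.60 at day 7 (unadjusted p = 0.00536).

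The Peg3 locus, also on chromosome 7, begins with Peg3, a zinc finger gene, and Usp29, a deubiquitinase gene, read in opposite directions from starts so close that 263 bases of their 300-base windows are shared. The Usp29 window at chr7:6730333-6730632 on the + strand is shown because it serves both starts, and it holds 17 CpG and no TGCCGC on either strand.
Usp29: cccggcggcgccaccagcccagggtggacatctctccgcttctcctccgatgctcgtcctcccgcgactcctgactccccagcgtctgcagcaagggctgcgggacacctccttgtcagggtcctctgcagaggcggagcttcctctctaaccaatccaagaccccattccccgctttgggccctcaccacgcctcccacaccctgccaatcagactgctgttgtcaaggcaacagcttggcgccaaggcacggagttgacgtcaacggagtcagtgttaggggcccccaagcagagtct
Peg3 was 0.76 and 0.82 in Dazl-GFP- and -0.53 and -0.63 in Dazl-GFP+ cells, then -1.50 and -1.64 at day 12, -0.44 and -0.40 at day 16, -0.40 and 0.30 at E13.5 and -2.27 and -3.04 in testis. It was lower in the Dazl-GFP+ fraction by 1.37 (SE 0.286, adjusted p = 0.03), lower at day 12 than in GFP+ ES cells by 0.99 (SE 0.286, adjusted p = 0.0246) and lower in testis than at E13.5 by 2.61 (SE 0.286, adjusted p = 4.85e-05). Day 16 and E13.5 were not called against ES cells. Between lines Peg3 was lower in the Stella line by 0.82 (SE 0.202), with overlapping libraries, a call lost without Stella replicate 2 of either fraction or any 1 of the Dazl ES libraries (-0.95 to -0.68). The sort and day 12 calls were lost without any 1 of the 4 libraries (-1.42 to -1.32 and -1.06 to -0.92), and the testis difference was -2.96 without E13.5 replicate 1. The second Peg3 probe gave -2.01, -0.39 and -2.68 in these comparisons and 1.91 for E13.5 against ES cells.

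Usp29 differed between its probes, so its direction is not settled. The brighter probe was -4.63 and -3.58 in Dazl-GFP+ ES cells, with 1 of 2 arrays above background, and -2.11 and -1.96 at day 12, a difference of 2.07 (SE 0.696, adjusted p = 0.0458). The other probe of the same transcript gave -1.88 at day 12 and -0.75 at day 7, where the brighter one was at least 5.05-fold higher than in Stella-GFP+ cells. With normexp background correction the brightest probe was chosen anew, and the Usp29 differences at day 7, day 12 and E13.5 were negative. Which probe these values describe is not known. The day 12 call was lost without any 1 of the 4 libraries (1.55 to 2.59), and the day 7 call without Stella-GFP+ ES replicate 1 or either day 7 library (2.04 to 4.10). Zim1 of this locus was above background on 0 of 18 arrays, Airn on 1 and Peg10 on 2, and none of them was tested.

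**Figure D3:**
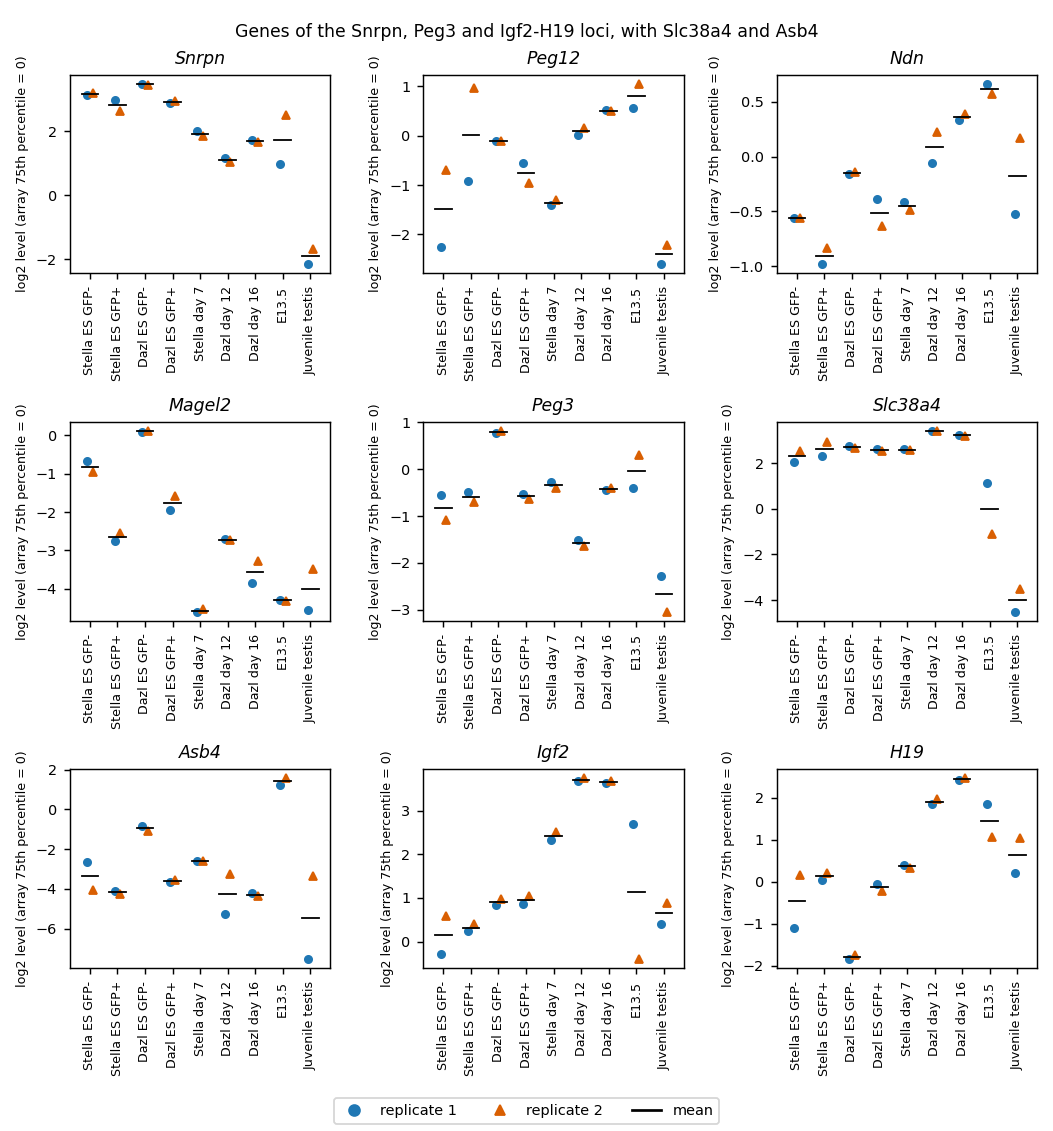
Level by group of 9 imprinted genes on the log2 scale, where 0 is the array's 75th percentile; circles are replicate 1, triangles replicate 2 and bars the mean of 2. Igf2 and H19 lie highest at days 12 and 16, Asb4 at E13.5, and Snrpn, Peg3, Peg12 and Slc38a4 lie lowest in juvenile testis.

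At the Peg10 locus on chromosome 6 all 4 tested genes were called at E13.5 against ES cells, 1 higher and 3 lower, where 44.9% of all genes were called. All 4 were also called without E13.5 replicate 1. Sgce, which encodes epsilon-sarcoglycan, was 0.90 and 0.94 in Dazl-GFP+ ES cells, 2.71 and 2.72 at day 12, 2.50 and 2.53 at day 16 and -2.68 and -2.75 at E13.5. The cultures thus lay above ES cells and E13.5 below them, with no overlap. Sgce was higher by 1.80 (SE 0.345, adjusted p = 0.00303) at day 12 and 1.60 (SE 0.345, adjusted p = 0.00635) at day 16, and lower at E13.5 by 3.64 (SE 0.345, adjusted p = 9.93e-06) than in ES cells, or by 3.67 without replicate 1. Against day 16 the E13.5 level was lower by 5.23 (SE 0.345), and without replicate 1 it was lower by 5.26. Sgce was 0.77 and -0.70 in juvenile testis, a rise of 2.75 (SE 0.345, adjusted p = 0.000122), or 2.78 without E13.5 replicate 1.

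Asb4, a subunit of a ubiquitin ligase known from placental vessels, was 1.25 and 1.57 at E13.5. It was -3.64 and -3.53 in Dazl-GFP+ ES cells, -4.22 and -4.35 at day 16 and -7.53 and -3.37 in testis, with 1 testis array above background. The E13.5 libraries lay above all 16 others, higher by 5.0 (SE 1.02, adjusted p = 0.00212) than ES cells and by 5.70 (SE 1.02, adjusted p = 0.00109) than day 16, and testis was lower than E13.5 by 6.86 (SE 1.02, adjusted p = 0.000401). Without E13.5 replicate 1 these were 5.16, 5.86 and -7.02, and without testis replicate 1 the testis difference was -4.78. The second Asb4 probe gave 2.35, 3.09 and -3.33. Calcr, the calcitonin receptor, was -3.22 and -3.17 in Dazl-GFP+ ES cells and -1.19 and -1.23 in GFP- cells, and at least 3.14-fold and 3.26-fold lower at days 12 and 16, where no array was above background. Both calls were lost without any 1 of the libraries compared (-2.64 to -1.89 and -2.39 to -1.72). With normexp correction the day 12 call was lost and the day 16 difference turned to 0.27. At E13.5 it was -7.54 and -4.69, with 1 array above background, lower by 2.92 (SE 0.671), or by 1.49 without replicate 1. Ppp1r9a, neurabin, was lower at E13.5 than in ES cells by 2.15 (SE 0.422), or 2.92 without replicate 1, but its second probe gave -0.58, with an unadjusted p of 0.17.

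**Figure D4:**
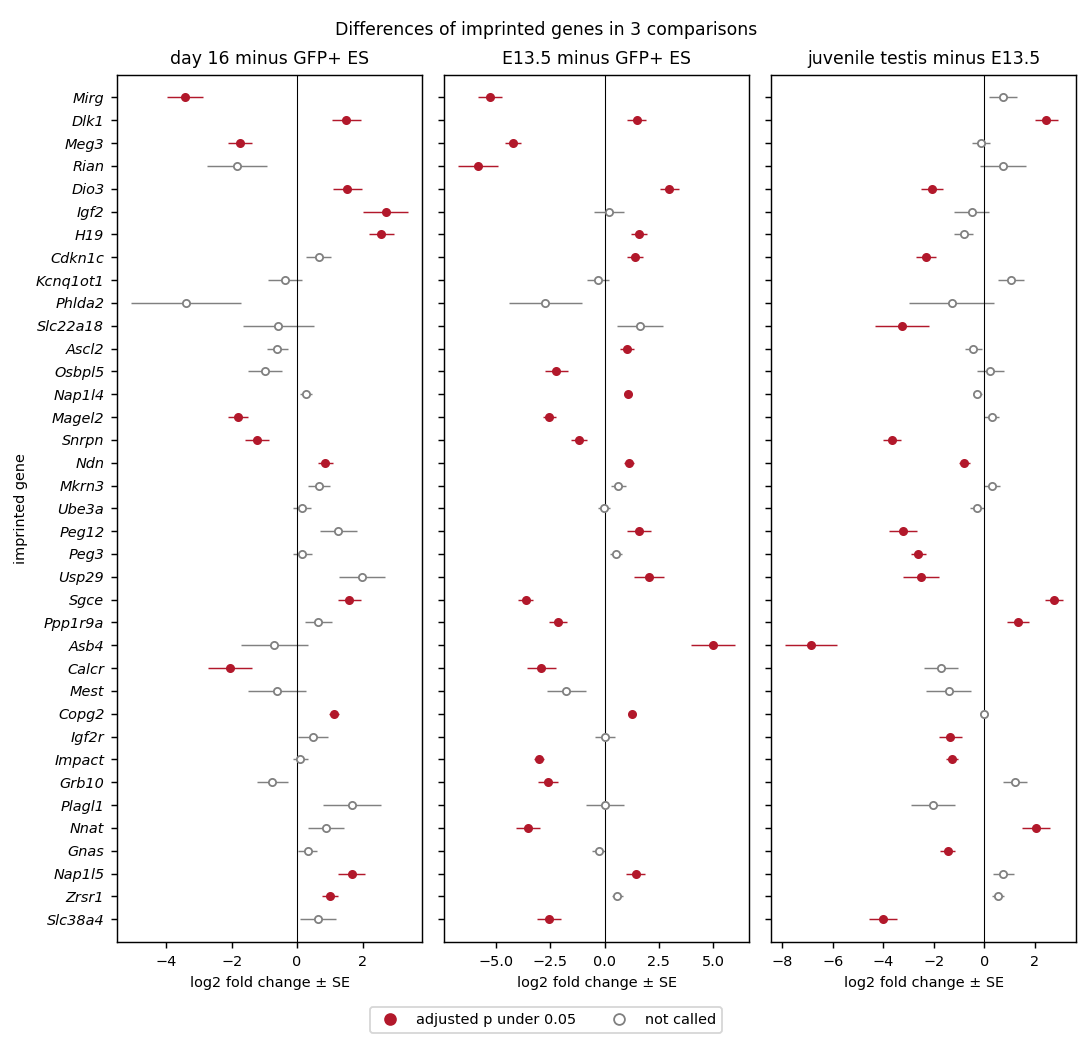
Log2 difference with its SE for each tested imprinted gene, in day 16 cells against Dazl-GFP+ ES cells, E13.5 against the same ES cells and juvenile testis against E13.5; filled points passed an adjusted p under 0.05. Sgce lies at 1.60, -3.64 and 2.75 in the 3 panels and Asb4 at -0.70, 5.0 and -6.86, while Mirg and Meg3 are negative in the first 2.

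At the Mest locus, Mest, which encodes a hydrolase-like protein, was called nowhere in the main fit. It was 3.82 and 3.90 in Dazl-GFP+ ES cells, 2.08 at day 12 in each library, 0.55 and 3.67 in the E13.5 libraries and -0.67 and 2.07 in testis. The E13.5 libraries enter the common spread, and without E13.5 replicate 1 the day 12 difference of -1.78 was called. Copg2, a coat protein gene of the same locus, rose in every culture. It was 1.44 and 1.46 in Dazl-GFP+ ES cells, 2.66 and 2.56 at day 12, 2.63 and 2.53 at day 16 and 2.64 and 2.78 at E13.5. The differences were 1.16, 1.13 and 1.26 (SE 0.153 each, adjusted p = 0.000301, 0.000381 and 5.99e-05), and 1.33 at E13.5 without replicate 1. At day 7 it was higher than in Stella-GFP+ cells by 0.60 (SE 0.153, adjusted p = 0.0181), a call lost without ES replicate 1 or either day 7 library (0.47 to 0.73).

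Of the 7 genes tested at the Kcnq1 locus on chromosome 7, 1 was called at day 12, Nap1l4, and 0 at day 16 in limma, with 2 and 0 at an unadjusted p under 0.05, where 27.6% and 24.9% of all genes were called. The Nap1l4 call was lost without ES replicate 2 or either day 12 library (0.32 to 0.78). Phlda2, which limits placental growth, was 4.59 and 4.55 in Dazl-GFP+ ES cells, 1.78 and 1.69 at day 12, 1.14 and 1.20 at day 16 and 1.24 and 1.57 at day 7. All culture libraries lay below all 8 ES libraries, but the differences of -2.84, -3.40 and -2.97 (SE 1.68 each) were not called. The E13.5 libraries, which enter the common spread, were at 5.76 and -2.06, and without E13.5 replicate 1 Phlda2 was called lower in all 3 culture comparisons. Cdkn1c, an inhibitor of the cell cycle, was 3.60 and 2.91 at E13.5, 1.88 and 1.82 in ES cells and 0.19 and 1.70 in testis. It was higher at E13.5 than in ES cells by 1.40 (SE 0.383, adjusted p = 0.0113), or by 1.06 without replicate 1 (adjusted p = 0.0835), and lower in testis by 2.31 (SE 0.383, adjusted p = 0.000788), or 1.96 without E13.5 replicate 1. Leaving out ES replicate 2 also ended the first call (1.37).

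Slc22a18, a transporter gene, was 3.54 and -1.37 at E13.5 and -2.54 and -1.82 in testis. It was lower in testis by 3.26 (SE 1.08, adjusted p = 0.0349), by 0.81 without E13.5 replicate 1 (adjusted p = 0.135), and the call was also lost without either testis library (-3.62 to -2.91). A second probe gave -1.12 (unadjusted p = 0.0369). Ascl2, a trophoblast transcription factor, was -1.20 and -0.39 at E13.5 and -2.69 and -2.14 at day 16, higher by 1.63 (SE 0.327, adjusted p = 0.00218), and by 2.03 without replicate 1. Another background correction turned its sign. Nap1l4, a histone chaperone gene, was 6.84 and 6.68 at E13.5 against 5.89 and 5.44 in ES cells, higher by 1.09 (SE 0.181, adjusted p = 0.000523), or 1.02 without replicate 1. Osbpl5, a lipid transfer gene, was lower in the Stella than the Dazl line by 1.64 (SE 0.372, adjusted p = 0.019), with -0.52 to 0.19 against 0.78 to 1.99, and by 1.73 within the shared slide. That call was lost without any 1 of 6 of the 8 ES libraries, all but Stella-GFP- replicate 2 and Stella-GFP+ replicate 1 (-1.76 to -1.52). Kcnq1ot1, the paternal noncoding RNA of the locus, was called nowhere, with -1.64 and -1.97 at day 12 and -0.53 and -0.41 in ES cells.

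Among the members alone at their loci, Impact, a regulator of translation, was lower in gonadal than in cultured cells. It lay between 3.41 and 4.00 in all 14 ES and culture libraries, at 0.53 and 0.74 at E13.5 and at -0.98 and -0.29 in testis. It fell by 3.0 (SE 0.228, adjusted p = 1.97e-06) from ES cells to E13.5 and by a further 1.27 (SE 0.228, adjusted p = 0.00132) to testis, with -2.90 and -1.37 without E13.5 replicate 1. Slc38a4, an amino acid transporter, was 2.62 and 2.54 in Dazl-GFP+ ES cells, 3.41 and 3.40 at day 12, 1.12 and -1.11 at E13.5 and -4.51 and -3.49 in testis. It was lower at E13.5 than in ES cells by 2.57 (SE 0.556, adjusted p = 0.00294) and lower in testis by another 4.01 (SE 0.556, adjusted p = 0.000249), its range of group means, 7.41, being the widest of the 37. Without E13.5 replicate 1 these were -3.69 and -2.89.

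Nnat, a small membrane protein gene, was -0.44 and -0.58 in Dazl-GFP+ ES cells, 0.38 and 0.36 at day 16, -5.30 and -2.80 at E13.5, with 1 of 2 arrays above background, and -2.17 and -1.82 in testis. At E13.5 it was lower than ES cells by 3.53 (SE 0.548, adjusted p = 0.000334) and lower than day 16 by 4.42 (SE 0.548, adjusted p = 9.44e-05), and without replicate 1 by 2.28 and 3.17. Testis was higher than E13.5 by 2.05 (SE 0.548), by 0.80 without E13.5 replicate 1, and not called without testis replicate 2 (1.88). Its promoter window, shown because the gene fell at E13.5, lies at chr2:157559828-157560127 on the + strand and holds 17 CpG and 1 hexamer.
Nnat: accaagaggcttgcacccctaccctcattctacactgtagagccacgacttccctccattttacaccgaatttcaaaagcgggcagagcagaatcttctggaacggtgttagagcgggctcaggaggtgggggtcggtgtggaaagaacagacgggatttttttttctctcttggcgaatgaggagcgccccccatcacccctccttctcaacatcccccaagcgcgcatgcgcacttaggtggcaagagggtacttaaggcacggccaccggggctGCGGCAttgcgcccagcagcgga
Grb10, an adaptor that restrains insulin signalling, was 2.47 and 2.22 in Dazl-GFP+ ES cells and 0.80 and -1.32 at E13.5, lower by 2.61 (SE 0.471, adjusted p = 0.000938), or by 3.67 without replicate 1. At day 7 it was lower than in Stella-GFP+ cells by 1.49 (SE 0.471), a call lost without any 1 of the 4 libraries (-1.53 to -1.45).

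Plagl1, a zinc finger gene, was called nowhere in the main fit, at 2.37 and 2.32 at day 16 against 0.67 and 0.66 in ES cells and with 2.51 and -1.13 at E13.5. Without E13.5 replicate 1 Plagl1 was called at day 7 (1.66), at day 16 (1.68) and between lines (-1.21). Zrsr1, a splicing gene, was higher at day 16 by 1.0 (SE 0.242, adjusted p = 0.0115), a call lost without ES replicate 2 or either day 16 library (0.90 to 1.10). Gnas, whose transcripts differ in parental origin, was lower in testis than at E13.5 by 1.44 (SE 0.295, adjusted p = 0.00289), or by 0.83 without E13.5 replicate 1. Another Gnas probe gave -1.50 and the remaining 4 tested gave -0.31 to 1.17, none of these with an unadjusted p under 0.05. Nap1l5 was called higher at day 16 and E13.5, but ES cells were not above background and no fold is given. The day 16 call was lost without any 1 of the 4 libraries, the E13.5 call without either ES library or E13.5 replicate 2, and with normexp correction the E13.5 difference turned to -1.10. Igf2r, the receptor that clears IGF2, was 3.65 and 2.66 at E13.5 and 1.98 and 1.65 in testis, lower by 1.34 (SE 0.453, adjusted p = 0.0391). Igf2r was not called without E13.5 replicate 1 (-0.85, adjusted p = 0.225) or without either testis library (-1.50 to -1.17).

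**Figure D5:**
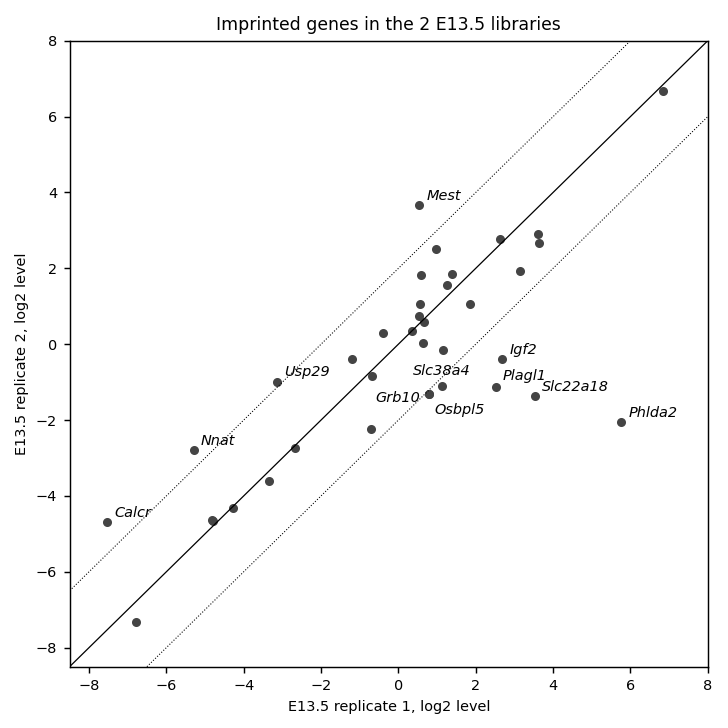
Level of each of the 37 imprinted genes in E13.5 replicate 1 (x axis) and replicate 2 (y axis), on the log2 scale; the solid line marks equal levels and the dotted lines a gap of 2. The 11 named genes lie outside the dotted lines, with Phlda2 at 5.76 and -2.06.

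The 11 members that differed by more than 2 between the E13.5 libraries were Phlda2, Slc22a18, Plagl1, Igf2, Mest, Calcr, Nnat, Slc38a4, Usp29, Grb10 and Osbpl5. Phlda2, Slc22a18, Plagl1, Igf2, Slc38a4, Grb10 and Osbpl5 were higher in replicate 1, the library with the higher trophoblast sum, and Mest, Calcr, Nnat and Usp29 were higher in replicate 2. Among trophoblast markers, Cdx2 was 3.1 in replicate 1 and -5.13 in replicate 2, Hand1 -2.53 and -7.18 and Elf5 -4.10 and -6.98, while Prl3d1 was -2.42 and -2.33 and Tpbpa was above background in neither. The 8 germ cell markers summed to 336 in replicate 1 and 250.5 in replicate 2. Dazl was at 5.43 and 5.27 and Ddx4 at 5.59 and 4.97. Dppa3 of that list differed more, its difference from Dazl-GFP+ ES cells being 1.92 with both libraries and 2.67 without replicate 1. The 6 ES cell markers summed to 26.1 in replicate 1 and 58.6 in replicate 2. The part of these markers in the gaps was not tested.

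Genes that set or keep imprints moved as well, from a list of 20 of which 19 were tested. At day 12, 2 were higher and 9 lower, 57.9% of those tested against 27.6% of all genes. At day 16, 2 were higher and 4 lower, 31.6% against 24.9%. Leaving out E13.5 replicate 1, which enters the common spread, brought further calls at both days, as it did over all genes. More regulators were gained at day 16 than at day 12, among them Dnmt3l, Dppa3 and Tet1, so the shares above do not set these days apart. Zfp57, the zinc finger protein that keeps imprints methylated, fell by 1.60 (SE 0.25, adjusted p = 0.000895) at day 12 and by 0.93 (SE 0.25, adjusted p = 0.0189) at day 16. Dnmt3b, a methyltransferase of new marks, fell by 3.63 (SE 0.34) and 3.15 (SE 0.34), and Smchd1, a chromatin protein of imprinted clusters, rose by 1.24 (SE 0.173) and 1.13 (SE 0.173).

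At E13.5 against ES cells 6 regulators were higher and 8 lower, 73.7% against 44.9% of all genes. Zfp57 fell by 5.20 (SE 0.25, adjusted p = 8.13e-08), with 1 of 2 E13.5 arrays above background, and Dnmt3l, the cofactor of de novo methylation, fell by 8.78 (SE 0.395, adjusted p = 5.09e-08). Without replicate 1 there were 6 higher and 9 lower, 78.9% against 42.4% of all genes, with Zfp57 at -5.33 and Dnmt3l at -7.93. Dnmt1, the maintenance enzyme, rose by 1.05 (SE 0.199) and Kdm1b, a histone demethylase needed for maternal imprints, by 2.06 (SE 0.246), or by 0.89 and 1.67 without replicate 1. In juvenile testis against E13.5, 4 were higher and 4 lower, 42.1% against 34.9% of all genes, with Dnmt3b up by 3.50 (SE 0.34), Dnmt3a up by 1.16 (SE 0.29) and Tet1, which oxidises methylated cytosine, lower by 2.57 (SE 0.378). Without E13.5 replicate 1 these were 2.94, 1.03 and -3.37, and 3 were higher and 4 lower, 36.8% against 40.1% of all genes, since Dnmt3l was no longer called (0.43, adjusted p = 0.0815).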

How the data were processed

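The authors deposited 1 Agilent Feature Extraction 9.1.3.1 file per array, per the file headers, with background-subtracted spot intensity. Spots of a probe were averaged, 172 probes were left out for outlier flags, and log2 intensity was centred on each array's 75th percentile. A probe was kept if well above background on both arrays of 1 group, which left 28114 probes and 18876 genes. Means of 9 groups were fitted with limma 3.58.1 in R 4.3.3 (9 residual degrees of freedom), and p-values were adjusted over all genes. Genes were named through RefSeq accessions or symbols, and no genome build is given in the sources used here. The members, gene lists and comparisons were chosen with earlier results of these data known. Genes named in the text are the members, the listed regulators and the listed markers. The authors' deposited table of group means, a signal scale with normalization not given in the sources used here, served as an alternative and held 36 members. The number of arrays limits the precision. The regulators without E13.5 replicate 1 were added after seeing the data. Scripts were tested on simulated data.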

Additional observations from a re-analysis of the deposited data

How the results depend on the processing

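Of 1507 recomputed values of 100 called gene differences, 1206 stayed the same and 283 lost the call. Staying the same meant keeping direction and call. For 89 values from the authors' deposited group means, which carry no p-value, it meant keeping direction within 1 SE. Another 9 of those group-mean values moved by over 1 SE, and 9 values reversed, all with normexp background correction. These were Usp29 at day 7 (-0.79), day 12 (-0.71) and E13.5 against ES (-0.84), Mkrn3 at day 12 (-0.33), Magel2 at day 16 (0.082), Calcr at day 16 (0.27), Ascl2 at E13.5 against ES (-0.15) and against day 16 (-0.31), and Nap1l5 at E13.5 against ES (-1.10). The brightest probe was chosen anew with that correction, so the Usp29 values may come from its other probe. That correction also moved the median of all genes, to -0.42 at day 7 and -0.50 at E13.5 against ES, from -0.16 and -0.00. Its counts of imprinted genes called were 0 and 0 in the Stella and Dazl sorts, 1 between lines, 1 at day 7, 8 at day 12 and 4 at day 16. With slide as a fixed block the counts were 0, 1 and 0 in the sorts and between lines, 6 at day 12 and 8 at day 16; the block could not be fitted at day 7 or for E13.5 against cultured cells. With only the arrays compared, and so 2 residual degrees of freedom in most fits, they were 0, 13, 10, 6, 26, 31, 11, 6 and 1 for the Stella sort, Dazl sort, lines, day 7, day 12, day 16, E13.5 against ES, E13.5 against day 16 and testis, while the shares of all genes were 0%, 13.6%, 12.7%, 15.1%, 48.8%, 51.8%, 18%, 16.8% and 1.82%. Leaving out 1 library gave 0 to 5 in the Stella sort, 0 to 8 in the Dazl sort, 0 to 10 between lines, 2 to 14 at day 7, 6 to 21 at day 12 and 6 to 20 at day 16. The labels do not say that a replicate number marks a shared source, and deviations of same-numbered samples correlated above 0.1 in 8 of 36 pairs of groups (-0.14 to 0.558), but among ES groups and among days 12 and 16 the number goes with the slide in part (ES groups -0.02 to 0.558). In the fit with the replicate block the counts were 1, 2, 4, 7, 14, 15, 25, 14 and 17, where H19 in the Dazl sort and Dlk1 at day 12 were no longer called and Usp29 at day 16 was. Signal near background limits Usp29, Calcr, Nap1l5, Magel2, Mkrn3 and Rian.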
